A study of Mus musculus with 8 samples.

Results

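Oligodendrocyte-like nuclei were 612 of the 4475 nucleus-like barcodes of the ventricular-subventricular zone (V-SVZ), the stem cell niche along the lateral ventricle, in 8 mice at postnatal day 90. A barcode, the tag shared by all transcripts of 1 droplet, was called nucleus-like when it held at least 300 detected genes and under 30% of its unique molecular identifiers (UMIs, the count of captured transcripts) came from the mitochondrial genome. It was called oligodendrocyte-like when UMIs summed over St18, Prr5l, Mag, Mog and Ugt8a reached at least 4 and those summed over Gpc5, Luzp2 and Rgs20 stayed under 5. The rule therefore used measured values of these 8 genes, and differences from other barcodes are given below as a description with no test. Of all 37881 barcodes with at least 300 genes, the 612 nuclei were 1.62%, and the 33406 barcodes left outside the nucleus-like set were rich in mitochondrial UMIs.

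Single nuclei RNA sequencing compared 4 Tsc2 wt/wt with 4 Tsc2 mut/mut mice, with 1 library per mouse. Tsc2 mut/mut mice carried the conditional allele Tsc2tm1.1Mjg, and both groups carried a ROSA26 CAG-tdTomato reporter, of which 100000 fluorescent nuclei were sorted per mouse with doublets gated out. The study induced recombination in pups with 4-hydroxytamoxifen and Nes-cre/ERT2, a Cre under the nestin promoter, which is active in neural stem cells, or with an electroporated Cre plasmid, and the labels do not say which was used for these mice. Total UMIs ranged from 11182335 in wt/wt mouse 3 to 36773832 in mut/mut mouse 3. No barcode of the oligodendrocyte-like nuclei occurred in more than 1 mouse.

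Oligodendrocytes are the glia that wrap axons in myelin, a stack of membrane rich in cholesterol and galactolipids and held together by a small set of abundant proteins. They mature from progenitors through a committed stage to a myelinating cell under transcription factors that include Sox10, Olig2 and Myrf. Tsc2 encodes tuberin, which together with the product of Tsc1 restrains the kinase complex mTORC1, and mTOR signalling is known to take part in oligodendrocyte maturation and in the synthesis of myelin lipids.

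The number of oligodendrocyte-like nuclei differed widely between libraries. Wild-type mice 1 to 4 held 30, 126, 24 and 62, and mutant mice 1 to 4 held 109, 56, 195 and 10. Mutant mouse 4 thus rested on 10 nuclei and 21031 UMIs, the fewest of any mouse, against 405661 UMIs in mutant mouse 3. The other nucleus-like barcodes of that mouse also stood apart, with 4 choroid plexus genes summing to 234194 CPM (the UMIs of a gene scaled to the same total of UMIs in every mouse) against 12484 to 107146 CPM in the other 7 mice. Results are therefore given with and without it where it matters. The median nucleus held between 1476 UMIs in mutant mouse 2 and 3275.5 in wild-type mouse 4.

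Few nuclei lay near the limits of the rule. Only 27 of the 612, or 4.41%, held 4 or 5 marker UMIs. The 16 nuclei with exactly 4 marker UMIs had 2619 CPM of Slc24a2, a sodium, calcium and potassium exchanger, and 1914 CPM of Edil3, a secreted matrix protein. In the 19 barcodes with 3 marker UMIs, just outside, these genes stood at 310.5 and 476 CPM. At the other limit, 81 barcodes with enough marker UMIs were kept out by Gpc5, Luzp2 and Rgs20, genes of astrocytes and stem cells. The 10 of them with exactly 5 such UMIs had 6552 CPM of Slc24a2 and 5133 CPM of Edil3, beside 7162 and 5130 CPM in the 12 nuclei with 4.

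Most genes that set these nuclei apart were not part of the rule. Of 2669 genes with at least 50 CPM on average and a UMI in the oligodendrocyte-like nuclei of all 8 mice, 373 stood over 2 higher on the log2 scale than in the other 3863 nucleus-like barcodes and 66 over 4 higher (5 CPM added to both means). The 20 leading genes ran from 4.78 to 5.60 on that scale, and 4 of them, St18, Prr5l, Mag and Mog, are genes of the rule. All 20 were higher than in the other nucleus-like barcodes and higher than in free RNA, the transcripts outside nuclei as read from the 20000 barcodes with the fewest UMIs, in each of the 8 mice. As the nuclei were chosen by genes of the same contrast, this describes the nuclei and is no test.

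**Figure D1:**
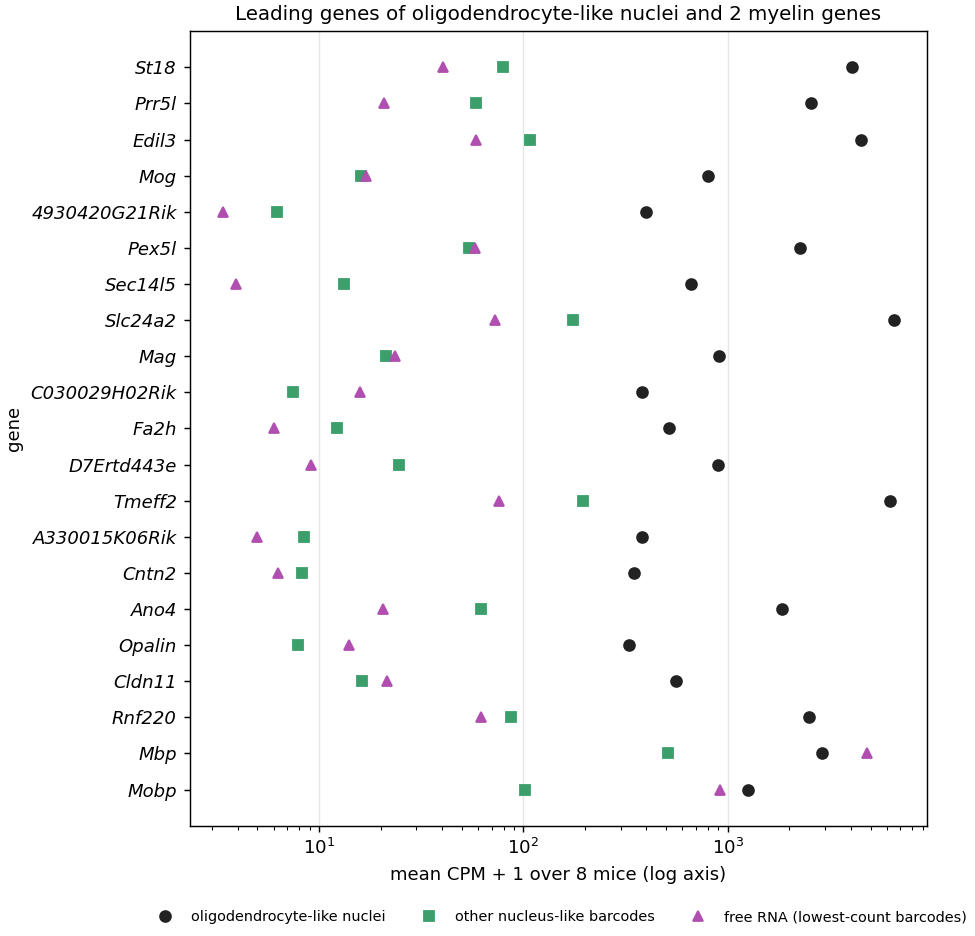
Mean CPM plus 1 over 8 mice (log axis) of 19 of the 20 leading genes and of Mbp and Mobp in oligodendrocyte-like nuclei (circles), other nucleus-like barcodes (squares) and free RNA (triangles). The leading genes lie far to the right of both other sets, while Mbp is higher in free RNA (4805 CPM) than in the nuclei (2895 CPM).

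Most transcription factors of the oligodendrocyte lineage were above the other nucleus-like barcodes. St18, a zinc finger factor of the Myt1 family and a gene of the rule, was at 4046 ± 369 CPM (SD, n = 8 mice) against 78.6 CPM in the other nucleus-like barcodes. Zfp536, a zinc finger factor, was at 1660 ± 333 CPM and Zeb2, which promotes myelination by restraining inhibitors of differentiation, at 2525 ± 389 CPM, 23.2-fold and 5.15-fold above the other nucleus-like barcodes. Myrf and Sox10 were found in every mouse. Myrf, the factor that switches on myelin genes, was at 171 ± 26.6 CPM with a range from 141 to 215, and Sox10, which specifies and maintains the lineage, at 104 ± 35.4 CPM. Olig2 gave only 39 UMIs and was absent from 1 mouse. In contrast to the other 10 factors of this list, Tcf7l2, a factor of newly forming oligodendrocytes, had a lower mean than in the other nucleus-like barcodes, at 71.9 against 278 CPM, and was lower in all 8 mice.

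Myelin proteins made up the second group, and 18 of the 20 on the list were above the other nucleus-like barcodes in every mouse. Mag, an adhesion protein of the membrane facing the axon and a gene of the rule, was at 902 ± 98.3 CPM. Mog, a protein of the outer surface of the sheath and also of the rule, was at 797 ± 116 CPM. Cntn2, an adhesion protein beside the node of Ranvier, was at 347 ± 113 CPM and 47.9-fold higher than elsewhere, and Opalin, a membrane protein specific to myelinating cells, was at 327 ± 83.8 CPM and 47.1-fold higher. Cldn11, the tight junction protein of myelin, was at 556 ± 178 CPM and 36.5-fold higher.

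Mbp, which glues the cytoplasmic faces of the sheath together, behaved unlike these genes. In oligodendrocyte-like nuclei it was at 2635, 2851, 2469 and 2249 CPM in wild-type mice 1 to 4 and at 2696, 3508, 2803 and 3947 CPM in mutant mice 1 to 4. Free RNA of the same libraries held 4805 CPM on average, and its level was above that of the nuclei in all 8 mice. Mobp, another protein of compact myelin, was at 1256 CPM in the nuclei and 911 CPM in free RNA. In the other nucleus-like barcodes of the same libraries Mbp was at 259 to 679 CPM, below the oligodendrocyte-like nuclei in all 8 mice. How much of the Mbp level in the nuclei came from free RNA was not tested.

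Enzymes of myelin lipids and of acetate supply formed the third group. Ugt8a, which makes galactosylceramide and belongs to the rule, was at 918 ± 152 CPM, and Fa2h, which hydroxylates the fatty acids of the same lipids, at 517 ± 74.6 CPM and 45.8-fold above the other nucleus-like barcodes. Gal3st1, which adds the sulfate of sulfatide, was at 112 ± 48.7 CPM and 23.1-fold higher. Aspa, which frees acetate from N-acetylaspartate, was at 753 ± 99.5 CPM and 25.1-fold higher. Of the 25 genes of lipid synthesis 13 had a higher mean than in the other nucleus-like barcodes. Hmgcs1 and Msmo1, of cholesterol synthesis, were at 59.8 and 52.9 CPM against 90.8 and 99.9 CPM elsewhere, and 7 of the 25 were above the other nucleus-like barcodes in every mouse.

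Among the receptors, Erbb3, a neuregulin receptor, was at 141 ± 55.2 CPM against 2.83 CPM in the other nucleus-like barcodes. Gpr37, a receptor that restrains differentiation, was at 214 ± 99.2 CPM and 20.8-fold higher, and Erbb4, a neuregulin receptor also used by neurons, at 2274 ± 802 CPM and 3.87-fold higher. Fgfr3, known from astrocytes, was at 2.59 CPM against 117 CPM. Other leading genes were Slc24a2 at 6507 ± 956 CPM, Tmeff2, a transmembrane protein, at 6222 ± 959 CPM, Edil3 at 4468 ± 455 CPM and Pex5l, a partner of HCN channels, at 2256 ± 769 CPM. Of the 20 leading genes 17 were protein coding. The median genomic span of these 20 was 93.4 kb against 66.8 kb over the 2668 eligible genes that GENCODE M21 placed on GRCm38.

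Summed markers of other cells had lower means than in the other nucleus-like barcodes. None of the 10 astrocyte markers had a higher mean than in the other nucleus-like barcodes, and their sum was 2204 against 16067 CPM, led by Apoe, a lipid carrier, at 836 CPM in the nuclei and 3677 CPM in free RNA. The 10 include Gpc5, Luzp2 and Rgs20, whose UMIs the rule limits, so part of this difference was set by the rule. Defining progenitor markers were close to absent, with Cspg4 at 0 and Pdgfra, the receptor that defines these cells, at 1.05 CPM, and the list summed to 168 CPM with Sox6 as its highest gene at 42.8 CPM. Its sum was 449 CPM in wild-type mouse 3, 322 CPM in mutant mouse 1 and at most 158 CPM in the other 6 mice. A count of 0 in the 1530381 UMIs of all 612 nuclei allows up to 1.96 CPM. Bmp4 and Neu4, genes of committed progenitors, were at 0 as well, and Gpr17 of the same stage was at 0.62 CPM. The 10 microglial markers summed to 216 CPM against 1139 CPM in the other nucleus-like barcodes. Ttr, a choroid plexus gene at 71856 CPM in the other nucleus-like barcodes, was at 46.4 CPM. Ependymal markers reached 1362 CPM in wild-type mouse 3 and at most 27.9 CPM in the other 7 mice, and endothelial markers reached 830 CPM in wild-type mouse 2 and 802 CPM in mutant mouse 2. The other nucleus-like barcodes held 716 CPM of endothelial markers in wild-type mouse 2, below the nuclei, and 1005 CPM in mutant mouse 2. The neuronal list was at 1858 CPM against 3311 CPM elsewhere, led by Nrxn3 at 650 CPM, but lay above the other nucleus-like barcodes in wild-type mouse 1 (2505 and 1696 CPM) and mutant mouse 4 (1141 and 885 CPM). Its Camk2n1 was at 528 CPM in the nuclei and 3224 CPM in free RNA.

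Promoter sequence was read for the leading genes because it was not part of the rule. RefSeq promoters of GRCm38.p6, from 250 bases before to 50 after a transcript start, were found for 15 of the 21 genes that are leading genes or markers of the rule, in 20 windows. The letters CTGGCAC or CTGGTAC, which resemble the site of Myrf, occurred on either strand in 8 of the 20 windows, or 40%, and in 7.10% of all 32851 windows. Counted by gene, 6 of 15 genes held them in some window against 8.10% of 27025 genes. The letters ACAAAG or ACAATG, which resemble the site of Sox factors, occurred in 9 of 20 windows, or 45%, against 28.6% of all windows, and in 6 of 15 genes, or 40%, against 31.7% of all genes. The motifs do not overlap each other in the sequences below, and the 2 windows of Mag that held both share most of their bases. A match is a description of letters, not evidence of a bound factor.

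The 6 genes with Myrf type letters are shown with 1 window each, the first listed, with matches of both motifs in capitals, and Prr5l is shown as the marker with the most Sox type matches and no Myrf type match.
Mag (chr7:30914814-30915113, minus strand): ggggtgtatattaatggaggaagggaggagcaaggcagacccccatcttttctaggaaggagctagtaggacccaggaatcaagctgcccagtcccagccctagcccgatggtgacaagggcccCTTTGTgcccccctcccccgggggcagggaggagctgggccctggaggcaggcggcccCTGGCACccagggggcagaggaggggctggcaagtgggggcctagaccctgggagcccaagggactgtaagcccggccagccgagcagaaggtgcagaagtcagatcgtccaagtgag
Mog (chr17:37023349-37023648, minus strand): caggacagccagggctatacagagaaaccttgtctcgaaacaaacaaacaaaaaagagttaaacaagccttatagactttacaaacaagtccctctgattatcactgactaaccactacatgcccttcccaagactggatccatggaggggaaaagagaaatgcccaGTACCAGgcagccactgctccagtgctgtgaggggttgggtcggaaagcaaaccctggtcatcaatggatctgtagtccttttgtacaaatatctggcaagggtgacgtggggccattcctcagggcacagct
Opalin (chr19:41077064-41077363, minus strand): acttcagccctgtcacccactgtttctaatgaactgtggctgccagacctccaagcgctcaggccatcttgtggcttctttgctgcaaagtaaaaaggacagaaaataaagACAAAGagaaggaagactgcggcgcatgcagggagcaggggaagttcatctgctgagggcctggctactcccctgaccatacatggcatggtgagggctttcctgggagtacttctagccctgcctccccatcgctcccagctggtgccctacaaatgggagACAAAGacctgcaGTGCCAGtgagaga
Sec14l5 (chr16:5146859-5147158, plus strand): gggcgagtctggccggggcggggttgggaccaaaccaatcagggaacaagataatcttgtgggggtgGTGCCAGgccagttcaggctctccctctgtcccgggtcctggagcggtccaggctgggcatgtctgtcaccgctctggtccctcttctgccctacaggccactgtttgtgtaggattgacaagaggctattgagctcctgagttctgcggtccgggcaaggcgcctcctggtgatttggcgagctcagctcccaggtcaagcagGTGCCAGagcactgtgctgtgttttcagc
Slc24a2 (chr4:87230491-87230790, minus strand): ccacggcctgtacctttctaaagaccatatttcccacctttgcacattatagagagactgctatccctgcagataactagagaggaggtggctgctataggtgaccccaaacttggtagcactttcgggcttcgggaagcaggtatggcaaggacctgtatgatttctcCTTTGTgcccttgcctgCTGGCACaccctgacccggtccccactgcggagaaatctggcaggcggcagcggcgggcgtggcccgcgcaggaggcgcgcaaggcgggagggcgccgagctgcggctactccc
D7Ertd443e (chr7:134376782-134377081, minus strand): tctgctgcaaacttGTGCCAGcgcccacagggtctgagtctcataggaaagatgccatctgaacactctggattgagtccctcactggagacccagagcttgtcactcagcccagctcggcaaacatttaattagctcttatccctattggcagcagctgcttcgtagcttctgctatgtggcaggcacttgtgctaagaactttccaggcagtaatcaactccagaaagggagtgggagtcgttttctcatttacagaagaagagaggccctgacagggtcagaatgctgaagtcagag
Prr5l (chr2:101882978-101883277, minus strand): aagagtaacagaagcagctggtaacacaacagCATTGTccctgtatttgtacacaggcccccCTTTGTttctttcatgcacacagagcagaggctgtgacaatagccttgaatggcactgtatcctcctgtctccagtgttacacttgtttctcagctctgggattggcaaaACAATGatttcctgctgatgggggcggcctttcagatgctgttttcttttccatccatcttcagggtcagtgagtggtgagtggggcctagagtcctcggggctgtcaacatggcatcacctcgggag

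The windows shown for Mag and Slc24a2 each held 1 match of both motifs, and Opalin held 2 Sox type matches beside 1 Myrf type match. Sec14l5, a lipid transfer protein gene at 662 ± 184 CPM, held 2 Myrf type matches, and Mog held 1. Ugt8a, Tmeff2, Cntn2, Ano4, Cldn11 and Rnf220 held neither in the windows listed, although all 6 were at least 29.1-fold above the other nucleus-like barcodes.

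The nuclei were not uniform. To compare them at 1 depth, each was thinned to 1000 UMIs, which left out 15 of 242 wild-type and 30 of 370 mutant nuclei. The same was done for 1213 nucleus-like barcodes with at least 5 UMIs of the excluding genes and under 4 of the markers, which served as the background. The excluding genes are genes of astrocytes and stem cells, so a share in the background can hold transcripts of those cells as well as free RNA. Ptgds is the prostaglandin D synthase of mature oligodendrocytes in grey matter, of the meninges and, as the study states, of the choroid plexus. It was found in 43.7% of 567 nuclei (exact 95% interval 39.6 to 47.9) and in 2.31% of the background, and in 56.0% before thinning. Over all other nucleus-like barcodes Ptgds ran from 76.3 CPM in wild-type mouse 3 to 1605 CPM in mutant mouse 4. Opalin was found in 27.2% against 0.165%, Il33, an alarmin stored in nuclei, in 17.8% against 3.87%, and Enpp6, a choline phosphodiesterase of newly forming oligodendrocytes, in 11.3% against 0.165%. Bcas1, a myelin protein of early myelinating cells, reached 43.6%, but its background was 5.36% and its free RNA level 454 CPM against 578 CPM in the nuclei. Klk6, a protease of a mature subtype found mainly in white matter, was found in 10 nuclei, or 1.76% (0.849 to 3.22), and in 0 of 1213 background barcodes, which allows up to 0.247% (3 counts of the total; the exact upper limit is 0.304%). These intervals cover counting error only.

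Some of these genes were found in the same nuclei more often than others. Il33 was found in 23.8% of the 248 nuclei with Ptgds and in 13.2% of those without, and Opalin in 35.9% and 20.4%. Enpp6 showed the opposite order, at 6.05% of nuclei with Ptgds and 15.4% of those without. Of the 10 nuclei with Klk6, 5 had Enpp6 and 2 had Ptgds. These shares pool nuclei of all mice and are given with no test. Over the 7 mice with at least 20 thinned nuclei, the share with Ptgds ran from 35.5% to 50%, that with Opalin from 11.1% to 40.7% and that with Klk6 from 0% to 7.32%.

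The targeted gene could not be followed in these nuclei. Tsc2 gave 26 UMIs in all, and its level was 38.9, 22.4, 0 and 17.8 CPM in wild-type mice 1 to 4 and 11.9, 31.8, 9.86 and 0 CPM in mutant mice 1 to 4. A count of 0 allows up to 44.9 CPM in wild-type mouse 3 and up to 143 CPM in mutant mouse 4, so the groups overlap and no difference was detectable at this depth. Reads at the 3′ end of a transcript need not lie in the deleted part, and the level therefore checks neither the label nor recombination. Tsc1 was at 182, 95.03, 180 and 138 CPM in wild-type and at 95.4, 151, 118 and 238 CPM in mutant mice, with a log2 fold change of -0.11 (SE 0.30).

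Prr5l was the most distinctive gene of the mTOR pathway list. Its product binds mTORC2, and as a gene of the rule it was at 2560 CPM against 57.5 CPM elsewhere. Its level was 3206, 2392, 3038 and 3407 CPM in wild-type mice 1 to 4 and 2143, 1754, 2211 and 2330 CPM in mutant mice 1 to 4. All 4 mutant mice lay below all 4 wild-type mice, at a log2 fold change of -0.54 (SE 0.16), but its UMIs are among those that select the nuclei, so the values are a description and no test is read from them. Rictor, the subunit that defines mTORC2, was at 173 ± 74.7 CPM and 2.16-fold above the other nucleus-like barcodes, with a log2 fold change of -0.27 (SE 0.29) between genotypes. Rptor, its counterpart in mTORC1, was at 120 ± 50.6 CPM and 0.93-fold.

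**Figure D2:**
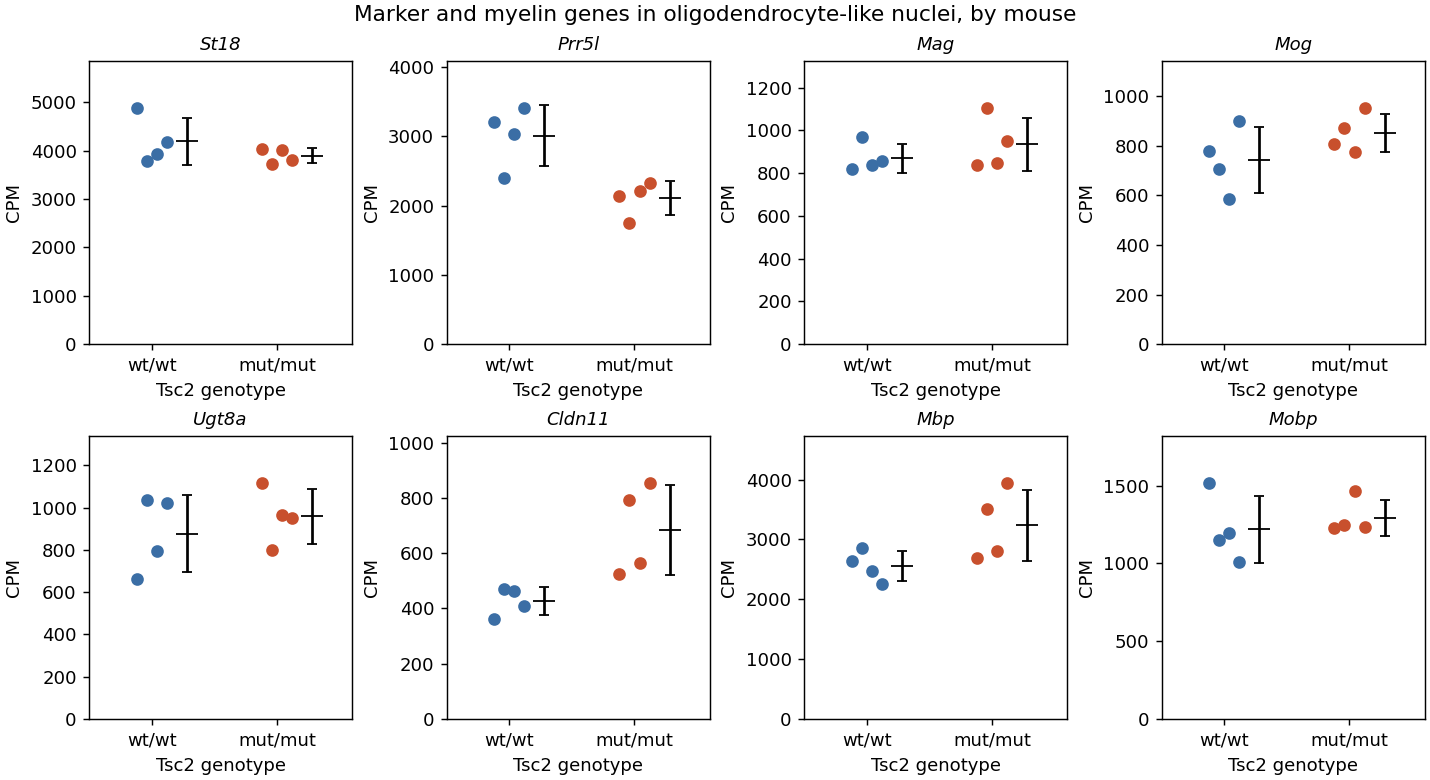
CPM in oligodendrocyte-like nuclei of each mouse for the 5 marker genes of the rule and for Cldn11, Mbp and Mobp, by Tsc2 genotype. Points are mice, and bars to the right show the mean and SD of 4 mice. Prr5l does not overlap between genotypes (1754 to 2330 CPM in mut/mut, 2392 to 3407 CPM in wt/wt), nor does Cldn11 (525 to 856 and 363 to 472 CPM).

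The share of oligodendrocyte-like nuclei among nucleus-like barcodes did not differ beyond the spread between mice. It was 9.35, 16.9, 9.09 and 16.1% in wild-type mice 1 to 4 and 12.5, 13.9, 16.1 and 3.68% in mutant mice 1 to 4. The means were 12.9% ± 4.22 and 11.5% ± 5.44 (SD, n = 4 each), a difference of -1.32 percentage points (exact two-sided permutation test, p = 0.771). Without mutant mouse 4 the difference was 1.30 points, and without wild-type mouse 2 it was 0.0221 points. Among nuclei with under 10% mitochondrial UMIs it was -7.49 points, which is given with no test because that limit is set on a value that differed between the groups and kept 45 of 195 nuclei in mutant mouse 3 and 50 of 62 in wild-type mouse 4. With barcodes thinned to 1000 UMIs the difference was -3.88 points (exact permutation test, p = 0.457), and with a minimum of 500 genes -2.97 points (exact permutation test, p = 0.571). All shares depend on the sort for tdTomato and on how many barcodes pass the limit on mitochondrial UMIs.

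Mitochondrial and marker UMIs of the oligodendrocyte-like nuclei are given as a description, because the rule sets a maximum on the first and a minimum on the second. The mitochondrial share was 8.24, 10.7, 6.04 and 6.22% in wild-type and 11.1, 11.7, 13.9 and 12.2% in mutant mice 1 to 4, so that the groups did not overlap. The difference between the means was 4.41 points. The median of marker UMIs per nucleus was 21, 22, 21.5 and 35.5 in wild-type and 19, 11, 16 and 12 in mutant mice. The median of all UMIs per nucleus was 2477 ± 575 in wild-type and 1818 ± 254 in mutant mice, and that of detected genes 1166 ± 191 and 933 ± 102. Both are given with no test, since the minimum of detected genes and of marker UMIs in the rule bears on them. The rule counts marker UMIs, so the nuclei of the 2 groups were not chosen at equal depth. Genotype and library quality cannot be told apart here.

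**Figure D3:**
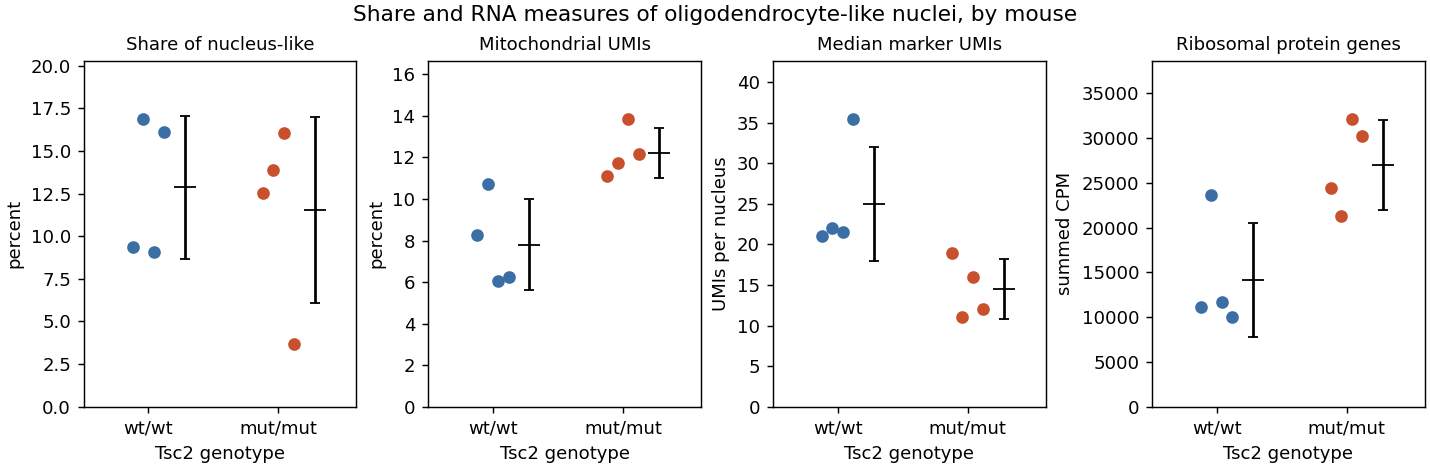
Share of nucleus-like barcodes, percent mitochondrial UMIs, median marker UMIs per nucleus and summed CPM of ribosomal protein genes in oligodendrocyte-like nuclei of each mouse, by Tsc2 genotype. Points are mice, and bars show the mean and SD of 4 mice. The mitochondrial share (6.04 to 10.7% against 11.1 to 13.9%) and marker UMIs do not overlap between genotypes, while the other measures do.

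No gene passed the test between genotypes in these nuclei. UMIs were summed per mouse and 2820 genes were tested with edgeR's quasi-likelihood test, of which 0 (0.00%) had an adjusted p under 0.05. At an unadjusted p under 0.05, 164 genes (5.82%) were higher and 97 (3.44%) lower in mutant mice. Of the 164, 53 were ribosomal protein genes and 12 mitochondrial genes. With both sets left out before the fit, 114 of 2838 genes were higher and 98 lower at that limit. Groups that did not overlap, with all mutant mice on 1 side of all wild-type mice, were seen for 58 genes (2.06%) on the higher and 95 (3.37%) on the lower side. DESeq2 on the same sums called 20 genes, 16 of them higher in mutant mice, and left 2187 genes without an adjusted p. Of these 20, 7 were ribosomal protein genes and 4 mitochondrial genes. The median log2 fold change of all genes tested was -0.04. In data simulated for this comparison, the test recovered 52% of genes changed by 1 and 99% of genes changed by 2 on the log2 scale, so a change of 1 on that scale could have been missed, and 8 unchanged genes were called.

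Tmem117, a membrane protein gene at chr15:94629232-95096098, had the smallest p. Its level was 273, 154, 195 and 352 CPM in wild-type mice 1 to 4 and 664, 603, 498 and 808 CPM in mutant mice 1 to 4, with no overlap. The log2 fold change was 1.33 (SE 0.26, edgeR adjusted p = 0.127), and adjusted p ranged from 0.000825 to 0.326 over the alternatives. The gene was almost absent from free RNA, at 4.95 CPM. Before thinning, Tmem117 was found in 26.7, 21.4, 37.5 and 41.9% of the nuclei of wild-type mice 1 to 4 and in 64.2, 62.5, 54.9 and 60% of those of mutant mice 1 to 4. The median UMIs per nucleus were lower in mutant mice on average. The part of depth and of free RNA in the Tmem117 difference was not tested.

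Eml1, a microtubule-binding protein gene at chr12:108370957-108539617, was the leading gene in the other direction. It was at 558, 411, 584 and 303 CPM in wild-type mice 1 to 4 and at 223, 135, 200 and 143 CPM in mutant mice 1 to 4, also with no overlap. Its log2 fold change was -1.25 (SE 0.27, edgeR adjusted p = 0.154), and it was at 7.97 CPM in free RNA. Its adjusted p ranged from 0.00833 to 0.515 over the alternatives and was under 0.05 by DESeq2, without wild-type mouse 2 and without wild-type mouse 4. Shroom3, an actin-binding protein gene, was at 143 ± 35.4 CPM in wild-type and 66.0 ± 54.7 CPM in mutant mice, at a log2 fold change of -1.63 (SE 0.40, edgeR adjusted p = 0.211), with mutant mouse 4 inside the wild-type range (adjusted p from 0.0222, without wild-type mouse 2, to 0.746 over the alternatives). Malat1, a long noncoding RNA kept in the nucleus, was at 56367 ± 14320 CPM in wild-type and 34161 ± 3248 CPM in mutant mice, with no overlap and a log2 fold change of -0.74 (SE 0.18, edgeR adjusted p = 0.211). Without the 13 nuclei of over 3 times the median UMIs the value for Malat1 was -0.45, and its adjusted p ranged from 0.00415 to 0.633 over the alternatives, under 0.05 by DESeq2 and without wild-type mouse 2.

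The other 6 of the 10 genes with the smallest p were Rpl39, Rpl37a, Rps4x, Cox8a, mt-Co3 and Mt1, which encode ribosomal proteins, subunits of cytochrome oxidase and a metallothionein. All 6 were higher in mutant mice, at log2 fold changes of 1.27, 1.18, 1.46, 1.11, 0.73 and 1.22, and all 6 were higher in free RNA than in the nuclei of every mouse. Without wild-type mouse 2 the log2 fold changes were 1.62, 1.77, 2.29, 1.59, 0.92 and 1.85, at edgeR adjusted p of 0.00129 to 0.00133. Over the alternatives the largest edgeR adjusted p of each gene lay between 0.650 and 0.746. Rpl39 was at 204 ± 73.1 CPM in wild-type and 509 ± 83.9 CPM in mutant nuclei, beside 2120 CPM in free RNA. mt-Co3 was at 15246 ± 4113 and 25634 ± 3007 CPM, beside 89916 CPM.

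**Figure D4:**
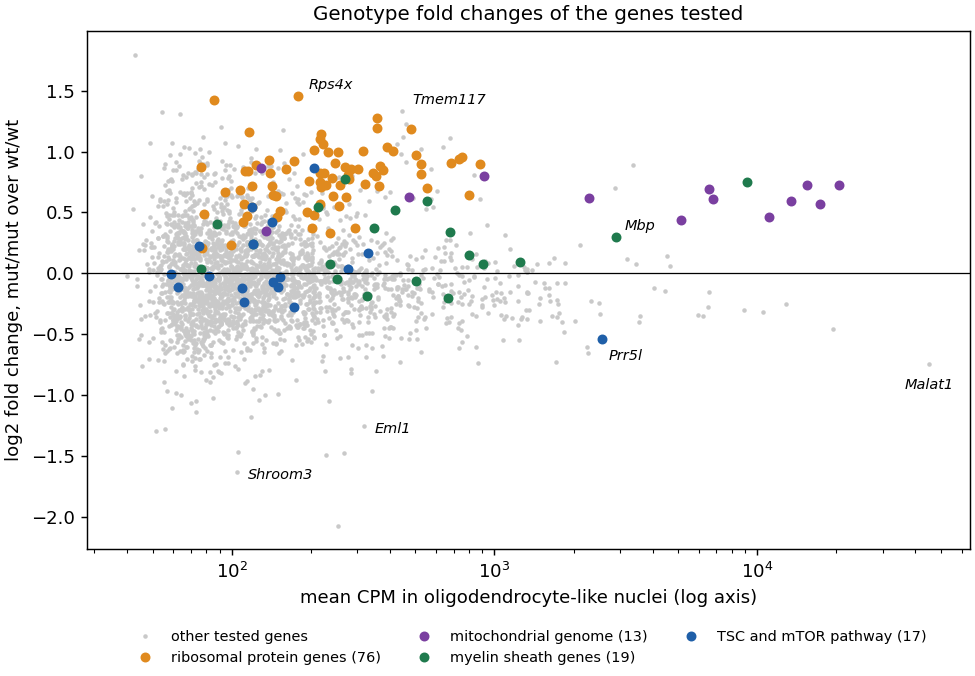
Log2 fold change of mut/mut over wt/wt mice against mean CPM (log axis) for the 2820 genes tested in oligodendrocyte-like nuclei. Ribosomal protein genes (76) and mitochondrial genes (13) all lie above 0, while 17 genes of the TSC and mTOR pathway and 19 myelin genes lie on both sides, and no gene passed the test.

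Ribosomal protein and mitochondrial genes lay on the same side of 0. All 76 ribosomal protein genes tested were higher in mutant mice, with a median log2 fold change of 0.82 beside -0.04 for all genes, and 0 passed the test. Groups did not overlap for 11 of them, beside 2.06% of all genes on the higher side. Their sum was 11110, 23584, 11717 and 10015 CPM in wild-type mice 1 to 4 and 24373, 21341, 32152 and 30194 CPM in mutant mice 1 to 4, so that wild-type mouse 2 lay among the mutant mice. All 13 mitochondrial genes tested were higher as well, at a median of 0.62, and 5 did not overlap. These genes summed to 117600 CPM (ribosomal) and 455946 CPM (mitochondrial) in free RNA, against 20561 and 100094 CPM in the nuclei, and they are read beside the mitochondrial share given above. Among nuclei with under 10% mitochondrial UMIs the medians were 0.64 over 56 ribosomal and 0.21 over 11 mitochondrial genes. That limit left 3 nuclei in mutant mouse 4 and is set on a value that differed between the groups, so these medians are a description. The part of free RNA in these differences was not tested.

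The count of calls turned on 1 library. Without wild-type mouse 2, whose mitochondrial share of 10.7% was the highest of its group, 129 of 2297 genes (5.62%) were called higher and 15 (0.653%) lower in mutant mice, and 57 of the 144 were ribosomal protein genes and 11 mitochondrial genes. The medians of these lists were then 1.29 and 0.85. The other 7 fits that left out 1 mouse each called from 0 to 2 genes. Some markers of astrocytes and neurons were also higher in mutant mice. The astrocyte list summed to 1728 ± 664 CPM in wild-type and 2681 ± 931 CPM in mutant mice, with all 6 tested markers higher in mutant mice (median 0.63). This list includes Gpc5, Luzp2 and Rgs20, whose UMIs the rule limits, so its sums are a description. Camk2n1, Camk2a and Nrgn, transcripts of neuronal dendrites with 1064 to 3224 CPM in free RNA, were at log2 fold changes of 1.02, 1.01 and 0.91. The other 2 neuronal genes tested, Nrxn3 and the noncoding RNA Meg3, were at -0.09 (SE 1.15) and -0.48 (SE 0.85). The 4 choroid plexus genes, of which 0 passed the filter, summed to 5.76 CPM in wild-type and 90.6 CPM in mutant mice, with 111, 0, 108 and 143 CPM in mutant mice 1 to 4 and at most 12.98 CPM in a wild-type mouse. With all 8 mice 0 genes of these lists passed the test. Without wild-type mouse 2, the astrocyte and neuronal lists had 2 genes called higher each, with medians of 1.17 and 1.15, and the choroid plexus list had 1. The lipid and subtype lists then had 1 gene called higher each, Scd2 at 0.99 (edgeR adjusted p = 0.0192) and S100b at 1.57 (edgeR adjusted p = 0.0176). In the TSC and mTOR list 1 gene, Prr5l at -0.62, was then called lower, but it is a gene of the rule and no test is read from it. The part of RNA from other cells in the genotype differences was not tested.

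Genes of myelin and of the pathway that Tsc2 belongs to did not pass with all 8 mice either. Of 19 myelin genes tested, 15 were higher and 4 lower in mutant mice (median 0.25), from -0.20 for Nfasc, an adhesion protein, to 0.78 for Ndrg1, a stress-responsive protein of Schwann cells and oligodendrocytes. Beside the 2.06% of all genes that were higher and 3.37% that were lower without overlap, 1 of the 19 myelin genes, Cldn11, was higher, and Bcas1, Aspa and the kinase gene Pik3ca were lower without overlap in the other lists of this paragraph. Prr5l was lower without overlap as well, but its UMIs help to select the nuclei and no result is read from it. The same holds for Mag and Mog in the myelin list, St18 among the lineage factors and Ugt8a among the lipid genes. The counts and medians of these lists include the genes of the rule and are a description. Cldn11 was at 363 to 472 CPM in wild-type and 525 to 856 CPM in mutant mice, with a log2 fold change of 0.59 (SE 0.21, edgeR adjusted p = 0.332). Of the 8 lineage transcription factors tested, 3 were higher and 5 lower (median -0.10), from -0.55 for Tcf7l2 to 0.41 for Olig1. Of 17 genes of the TSC and mTOR list, 7 were higher and 10 lower (median -0.02), from Prr5l at -0.54 to Sgk1, a kinase activated by mTORC2, at 0.86 (SE 0.62). Of 8 lipid genes, 4 were higher and 4 lower (median 0.01), with Scd2, the brain fatty acid desaturase, at 0.61 and Aspa at -0.25. Erbb4 was the lowest of 7 receptors tested, at 2815 ± 741 CPM in wild-type and 1733 ± 416 CPM in mutant mice and a log2 fold change of -0.65 (SE 0.21, edgeR adjusted p = 0.305). Subtype genes gave 5 higher and 3 lower (median 0.16), with S100b highest at 0.91 and Grm3, a glutamate receptor gene, lowest at -0.22. Newly formed stage genes gave 1 higher and 3 lower (median -0.20), injury response genes only Il33 at -0.09, and immediate early genes Jun at -0.17 and Fos at -0.59, whose median of -0.38 became 0.14 without wild-type mouse 2. Without that mouse the medians were 0.42 for myelin, -0.027 for lineage factors and 0.098 for the TSC and mTOR list. They were 0.13 for lipid genes, 0.31 for subtype genes and -0.09 for receptors (-0.23 with all mice). Among nuclei with under 10% mitochondrial UMIs the medians were 0.44 for myelin, 0.06 for lipid genes, 0.08 for subtype genes and -0.12 for receptors. That limit kept 3 of 10 nuclei in mutant mouse 4 and 16 of 56 in mutant mouse 2. It is set on a value that differed between the groups, so these medians are a description.

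Cldn11, Mal and Cnp, which encode the tight junction protein of myelin, a membrane proteolipid and a nucleotide phosphodiesterase, were uneven between the mutant mice. Cldn11 was at 363, 472, 464 and 410 CPM in wild-type mice 1 to 4 and at 525, 794, 565 and 856 CPM in mutant mice 1 to 4, highest in mutant mice 2 and 4. In mutant mouse 4, 1 nucleus gave 12 of the 18 Cldn11 UMIs, or 66.7%, and in mutant mouse 2, 1 nucleus gave 22%, beside 4.55% and 6.55% in mutant mice 1 and 3 and 6.52 to 16.1% in wild-type mice. The share of nuclei with a Cldn11 UMI was 40% in mutant mouse 4 and 55.4 to 56.9% in the other 3 mutant mice, beside 57.9 to 63.3% in wild-type mice, although the level was higher in every mutant mouse. Cnp was at 690 and 808 CPM in mutant mice 2 and 4 beside 263 to 414 CPM in the other 6 mice, and 1 nucleus gave 15 of its 17 UMIs in mutant mouse 4. Mal was at 1167 and 903 CPM in mutant mice 2 and 4 beside 450 to 866 CPM in the other 6 mice. For Mal 1 nucleus gave 11 of the 19 UMIs in mutant mouse 4 and 24.5% in mutant mouse 2, beside 7.08 to 23.9% in the other 6 mice. Its log2 fold change was 0.34 with all mice and -0.02 without mutant mouse 2. The 3 genes were set side by side after their values were seen.

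**Figure D5:**
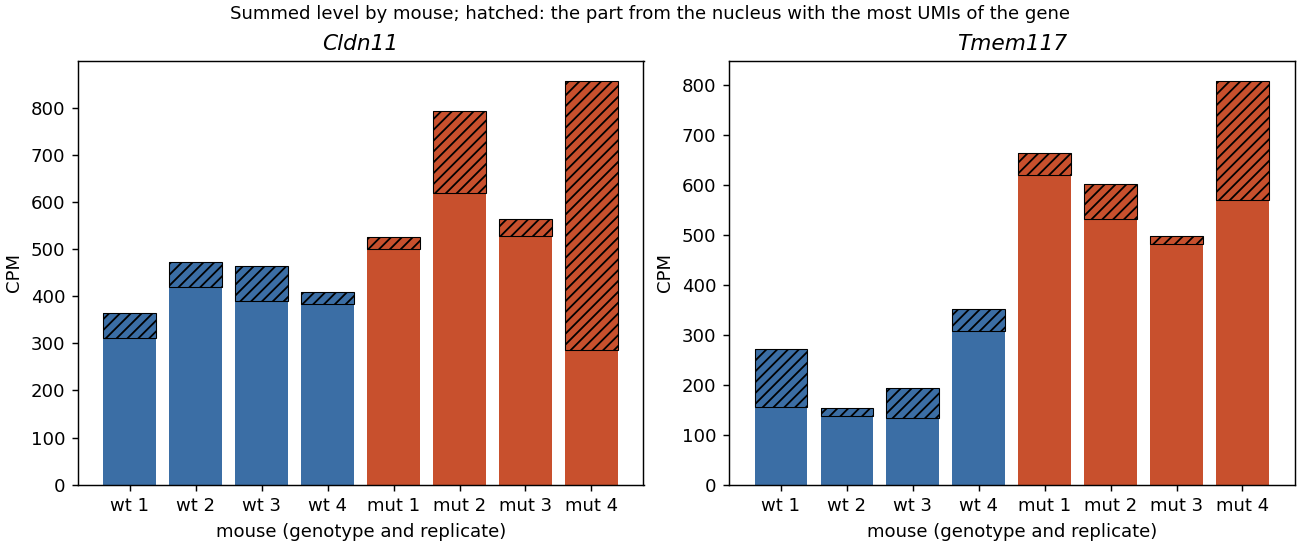
Summed CPM of Cldn11 and Tmem117 in oligodendrocyte-like nuclei of each mouse, with the hatched part of each bar from the nucleus that held the most UMIs of that gene. For Cldn11, 66.7% of the bar of mutant mouse 4 comes from 1 nucleus, and for Tmem117 the 4 mutant mice lie between 498 and 808 CPM, above all wild-type mice.

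Whether a genotype difference was particular to these nuclei was tested as the difference between their genotype effect and that of the other nucleus-like barcodes of the same mice. Of 8874 genes 0 (0.00%) passed, with 247 at an unadjusted p under 0.05 (edgeR quasi-likelihood test with mouse as block). Tmem117 was also higher in the other nucleus-like barcodes, at a log2 fold change of 1.02 (SE 0.45), and the difference between the effects was 0.43 (SE 0.53). In those barcodes mutant mice 1 to 3 were at 57.8, 67.5 and 46.9 CPM. Mutant mouse 4 was at 5.92 CPM, below the wild-type mice at 17.9 to 28.2 CPM. For Eml1 the other barcodes gave -0.37 (SE 0.33) and the difference was -0.98 (SE 0.42, edgeR unadjusted p = 0.0318, adjusted p = 1). Leaving out mutant mouse 4 left the number of genes that passed at 0. Ribosomal protein genes were higher in mutant mice in the other nucleus-like barcodes too, 78 of 78 with a median of 1.11, and so were 13 of 13 mitochondrial genes with a median of 0.60. In the oligodendrocyte-like nuclei these medians were 0.82 and 0.62. The model over both sets, which scales and filters genes together, gave median differences of 0.31 and 0.08, so for ribosomal protein genes the sign differs from that of the separate fits and no larger effect in either set is read. In data simulated for this comparison with 2820 genes, fewer than the 8874 tested, it recovered 18% of genes changed by 1 and 89% of those changed by 2 on the log2 scale, and 10 unchanged genes were called. The simulated counts of the other barcodes were given the spread between mice fitted to the oligodendrocyte-like nuclei. Recovery with the spread of the other barcodes themselves was not tested.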

How the data were processed

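Nuclei of 8 mice were profiled with 10x Genomics 3′ v3.1 libraries. The authors ran Cell Ranger 7.0.1 on GRCm38 (mm10) with the number of barcodes set to 60000 per library, and the deposited matrices hold raw UMI counts with no normalization. Seurat 4 is named in the submitters' processing notes, and no cell annotation was used here. Nuclei were grouped by the rule given above, summed per mouse, scaled to CPM for description and tested in edgeR 4.0.16 (TMM, filterByExpr, robust quasi-likelihood, Benjamini-Hochberg over all genes) under R 4.3.3. Single values per mouse were compared by exact permutation (scipy 1.17.1). Doublets beyond the sort gate were not called, and removing the 13 nuclei with over 3 times the median UMIs of their library served as an alternative. Depth per mouse was 21031 to 405661 UMIs. Alternatives covered limits of the rule, depth, scaling, filters, DESeq2 1.42.0 and each mouse left out. Tests were checked on simulated data.

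The members and gene lists were chosen with earlier results of these data known. Genes were named by a rule: the 5 markers, the 3 excluding genes and Mbp, the 20 genes with the largest ratio to other barcodes, the 10 genes of smallest p since none passed, the 4 most abundant tested genes of each list, Tsc2 and Tsc1, the most abundant gene and defining markers at 0 of other cell types, and 6 genes for variation among nuclei. Genes named for a role or at the end of a list's range (Sox10, Olig2, Olig1, Tcf7l2, Gal3st1, Hmgcs1, Msmo1, Rptor, Rictor, Erbb3, Fgfr3, Gpr17, Pdgfra, Nfasc, Ndrg1, S100b, Cnp, Mal, Meg3, Pik3ca) were chosen after their values were seen. Replicates are separate mice. Motif letters were searched in RefSeq promoters of GRCm38.p6, and gene positions come from GENCODE M21. Some members of the lists are not reported here.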

Additional observations from a re-analysis of the deposited data

Results flagged for a closer look

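In wild-type mouse 4 the median of marker UMIs per oligodendrocyte-like nucleus was 35.5, against 21 to 22 in the other 3 wild-type mice. Mt1 was at 509 CPM in wild-type mouse 2, against 169 to 205 CPM in the other 3. In each case 1 mouse stood far from the rest of its group. With 70 groups of 4 mice examined and 2 so marked, and about 1 in 20 marked by chance alone, neither is unusual in number.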

How the results depend on the processing

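The share of oligodendrocyte-like nuclei changed direction with a minimum of 200 genes (0.104 points) and ranged from -2.84 to 1.30 points when 1 mouse was left out. With under 10% mitochondrial UMIs it was -7.49 points, with no test read since that limit is set on a value that differed between the groups. The cause of the other shifts was not tested. The mitochondrial difference ranged from 3.83 to 5.38 points with 1 mouse left out. Genes called between genotypes numbered 2 under 2 UMIs of excluding genes, 20 by DESeq2, 6 with no filter beyond 1 UMI, and from 0 to 144 with 1 mouse left out, and 15 of the 21 alternatives called 0, including one chosen after seeing the data that left out mitochondrial and ribosomal protein genes. The difference between genotype effects gave 5 calls with no filter beyond 1 UMI and 0 under the other 9 alternatives. Of 29 genes followed through up to 21 alternatives, 26 never changed direction. The log2 fold change of Tsc1 was 0.011 under 2 UMIs of excluding genes, and with a mouse left out it ran from -0.34 to 0.064 for Tsc1, from -0.057 to 0.15 for Mag and from -0.027 to 0.20 for Ugt8a. Same-numbered mice did not deviate together (correlations 0.05, -0.02, -0.06 and -0.02), so the numbers do not pair them, and a fit with the replicate number as block called 0 genes, with 259 at an unadjusted p under 0.05. Depth limits all gene-level statements, since mutant mouse 4 rests on 10 nuclei.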
